A study of Ostreococcus tauri with 30 samples.

Results

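The central carbon modules of the marine green picoalga Ostreococcus tauri were followed through a copper challenge. A KEGG module is a curated group of enzyme or protein families that act in the same pathway or complex, and the deposited module table gives read counts for each such group. The members were taken by identifier: glycolysis, gluconeogenesis, the pentose phosphate pathway, the Entner-Doudoroff pathway, the citrate cycle, the glyoxylate cycle and the parts of these routes, with pyruvate oxidation. Of 12 identifiers, 7 had a row among the 236 modules of the table: M00001 (glycolysis, from glucose to pyruvate), M00003 (gluconeogenesis, from oxaloacetate to fructose 6-phosphate), M00004 (pentose phosphate pathway), M00008 (Entner-Doudoroff pathway), M00009 (citrate cycle), M00012 (glyoxylate cycle) and M00307 (pyruvate oxidation to acetyl-CoA). The other 5 (M00002, M00006, M00007, M00010 and M00011, which are shorter segments of glycolysis, the pentose phosphate pathway and the citrate cycle) were not analysed here.

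Glycolysis splits glucose to pyruvate with a gain of ATP and NADH, and gluconeogenesis runs toward sugar phosphates through its own enzymes at the irreversible steps. The pentose phosphate pathway supplies NADPH and pentoses, and the pyruvate dehydrogenase complex links pyruvate to the citrate cycle, which oxidises acetyl-CoA in the mitochondrion. The glyoxylate cycle uses isocitrate lyase and malate synthase to bypass the decarboxylating steps of the citrate cycle, so that plants and algae can build sugars from acetyl-CoA.

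All cultures were of strain RCC745, grown to the exponential phase in aerated flasks of artificial seawater under alternating light and dark, and every library was made from polyadenylated RNA. There were 10 groups of 3 libraries. Of these, 4 were controls without added copper, sampled at 0, 1, 4 and 12 h. The other 6 received copper at either of 2 strengths and were sampled 1, 4 or 12 h later. The sample labels give these additions as 25 and 250 µM and the treatment protocol as 0.4 and 2 µM. The groups are therefore called lower and higher copper. The sources used here do not give the clock time of the addition, so time after the addition and phase of the light cycle cannot be told apart in comparisons between times. Nothing in the labels says that replicates came from separate cultures, and p-values then measure only the spread between these libraries, which may be technical. The strain is a single isolate.

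Gene counts per library ran from 2549094 to 5232257 and module counts from 27534827 to 62565779. Module counts were 9.891 to 12.2 times the gene counts in 28 libraries. The factor was 6.055 for control replicate 3 at 1 h and 20.05 for control replicate 3 at 4 h. With the module columns of these libraries exchanged the factors were 11.03 and 11.01, so the labels of that pair are in doubt in at least 1 of the tables, and the copper tests of M00012, the ratio tests and the ranges of the other members are given again without both. All levels below are CPM of module counts, that is counts relative to the library's module total, scaled by edgeR's TMM factors. They compare a module between libraries, not modules with one another per enzyme, since modules hold different numbers and lengths of genes. In bulk cultures, fewer cells that express a pathway and less of its RNA per cell cannot be told apart.

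The glyoxylate cycle module, M00012, was the 1 member called against a control of the same time. The call was under higher copper at 1 h, where 5.08% of all modules were called. Its group means were lowest under higher copper at 1 and 12 h, and in the test at 1 h its fitted level was 4.72-fold below that of the control of the same time. Over 1, 4 and 12 h together it fell 3.20-fold under higher copper. That contrast was added after the values were seen, and 28.4% of all modules were called in it. M00012 lost its call at 1 h without control replicate 1 or 2, and without higher copper replicate 1, 2 or 3. Its tests at 4 and 12 h, and those under lower copper, did not pass. The other 6 modules did not pass the test in any comparison with a control. It was also the rarest member, at a mean of 11.9 CPM over 30 libraries, rank 226 of 236 modules, with raw counts from 98 to 1340.

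In the cultures without added copper, M00012 stood at 24.1, 23.6 and 12.9 CPM at 0 h. It stood at 21.5, 22.9 and 12.6 CPM at 1 h, at 15.8, 25.3 and 7.31 CPM at 4 h, and at 14.1, 15.8 and 19.2 CPM at 12 h. The control libraries thus spread widely at each of the first 3 times, where the third replicate was the lowest each time, and were closest together at 12 h.

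Under higher copper, M00012 stood at 2.93, 5.62 and 3.52 CPM at 1 h, from 98, 240 and 189 counts. It stood at 2.67, 12.7 and 4.07 CPM at 4 h and at 8.15, 6.55 and 2.95 CPM at 12 h. In 8 of 9 higher copper libraries the level was below the lowest control of the same time, and the exception was replicate 2 at 4 h.

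Under lower copper the levels were 8.39, 7.82 and 2.26 CPM at 1 h. They were 15.2, 6.98 and 17.3 CPM at 4 h and 8.42, 13.3 and 13.4 CPM at 12 h. The libraries lay below all controls of their time at 1 h and at 12 h, the latter by a narrow margin, and overlapped the controls at 4 h.

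**Figure D1:**
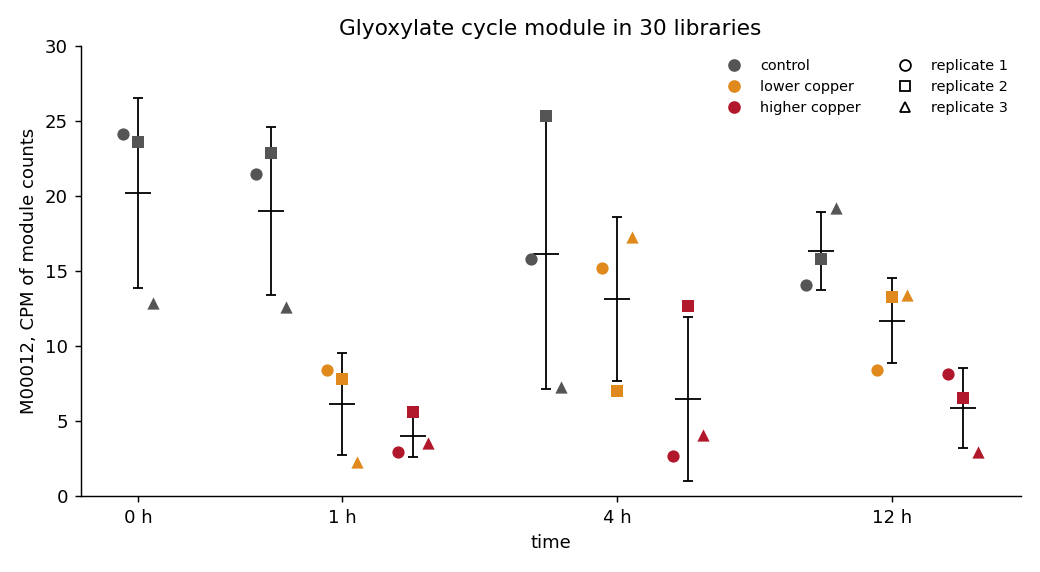
CPM of the glyoxylate cycle module M00012 (vertical axis, from 0) in each of 30 libraries by time (horizontal axis). Colours give the copper level and symbols the replicate number; the line and bar give the mean ± SD of 3 libraries. Higher copper means lay at 4.02, 6.49 and 5.89 CPM at 1, 4 and 12 h, against 19.0, 16.1 and 16.4 CPM in the controls.

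At 1 h, the higher copper mean was 4.02 ± 1.41 CPM (SD, n = 3) and the control mean 19.0 ± 5.57 CPM. The log2 fold change was -2.24 ± 0.59 (SE), with an adjusted p of 0.0298 by edgeR's quasi-likelihood test with Benjamini-Hochberg adjustment over 236 modules. The 95% interval ran from 2.03-fold to 11-fold lower. This was 1 of 7 members called at an adjusted p under 0.05, where 5.08% of all modules were called. The call was fragile: it was lost with adjusted p values of 0.0932 and 0.101 without control replicate 1 or 2, and of 0.0884, 0.105 and 0.117 without higher copper replicate 1, 2 or 3, although the log2 fold change stayed between -2.58 and -2.05. Without both doubted controls it was -2.47 with an adjusted p of 0.0245, and with their labels exchanged -2.10 with an adjusted p of 0.110.

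At 4 h, the means were 6.49 ± 5.46 CPM under higher copper and 16.1 ± 9.02 CPM in the control, both with wide spread. The edgeR test called 0 of 7 members there, against 8.47% of modules. An unadjusted p under 0.05 was found for 1 of 7 members and 61 of 236 modules. The log2 fold change of M00012, -1.31 ± 0.57, did not pass the test (edgeR adjusted p = 0.150). Without higher copper replicate 2, the library at 12.7 CPM, it was -2.26 with an adjusted p of 0.0181. Without both doubted controls it was -1.67 with an adjusted p of 0.116. At 12 h, 5.89 ± 2.66 CPM under higher copper stood against 16.4 ± 2.58 CPM in the control, with no overlap. The edgeR test called 0 of 7 members at 12 h, against 16.5% of modules. An unadjusted p under 0.05 was found for 2 of 7 members and 74 of 236 modules. The log2 fold change of M00012 was -1.48 ± 0.57 and missed the threshold (edgeR adjusted p = 0.0806). Without higher copper replicate 2 of the 4 h group, which enters the shared estimate of the spread, the adjusted p at 12 h was 0.0496. DESeq2 called 1 of 7 members at 1 h and 0 at 4 and 12 h. The share of all modules that DESeq2 called is not given here or below.

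The mean of the higher copper effect over 1, 4 and 12 h, a contrast added after the values were seen, was -1.68 ± 0.33 on the log2 scale (edgeR adjusted p = 0.000431). The 95% interval of the fold ran from 1.98-fold to 5.15-fold lower. M00012 was the 1 of 7 members called there, a smaller share than the 28.4% of all modules called. Across all 38 alternative settings the value lay between -1.99 and -1.51 and the adjusted p between 5.43e-06 and 0.00167. Without both doubted controls it was -1.87 with an adjusted p of 0.00026.

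Under lower copper M00012 did not pass the test at any time. The log2 fold change was -1.63 ± 0.58 at 1 h (edgeR adjusted p = 0.289), -0.30 ± 0.56 at 4 h (adjusted p = 0.931) and -0.48 ± 0.56 at 12 h (adjusted p = 0.986). Without both doubted controls it was -1.88, -0.66 and -0.50 (adjusted p = 0.229, 0.733 and 0.998). At 4 h the value ran from -0.66 to 0.19 over 38 alternative settings, so its direction was not fixed. The edgeR test called 0 of 7 members at each time, against 0%, 0% and 0.424% of all modules at 1, 4 and 12 h. At an unadjusted p under 0.05 it counted 1, 0 and 0 members, and 20, 16 and 16 of 236 modules. DESeq2 called 0 members each time. Averaged over the times, the change of M00012 was -0.80 ± 0.33 with an edgeR adjusted p of 0.221. There 0 of 7 members were called, against 4.66% of modules. An unadjusted p under 0.05 was found for 1 of 7 members and 32 of 236 modules. DESeq2 called 0. Without both doubted controls this average change was -1.01 with an edgeR adjusted p of 0.0978.

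The direct comparison of the copper levels gave M00012 a log2 difference, higher minus lower, of -0.87 ± 0.33 averaged over the times (edgeR adjusted p = 0.0653). Its 95% interval ran from 1.15-fold to 2.93-fold lower under higher copper. Of 7 members, 0 were called against 11% of modules, and 2 had an unadjusted p under 0.05 against 86 of 236 modules. DESeq2 called 1 member, which was M00012 at an adjusted p of 0.0435. The call also depended on single libraries: without higher copper replicate 2 at 4 h the adjusted p was 0.0124, and without lower copper replicate 3 at 1 h it was 0.0434. At single times, edgeR and DESeq2 both called 0 members at 1, 4 and 12 h, where edgeR called 0%, 0.847% and 0.847% of modules. The edgeR test put 0 members at an unadjusted p under 0.05 each time, against 9, 42 and 42 of 236 modules.

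The copper effect on M00012 was not shown to differ between times. From 1 to 4 h the higher copper effect moved by 0.93 ± 0.80 on the log2 scale (edgeR adjusted p = 0.995) and the lower copper effect by 1.33 ± 0.80 (adjusted p = 0.996). With both doubted controls left out these were 0.81 ± 0.86 and 1.22 ± 0.86, with the same adjusted p values. For the changes of both effects from 1 to 4 h and from 4 to 12 h, 0% of all modules were called by edgeR. Members at an unadjusted p under 0.05 numbered 0 in each, and DESeq2 called 0 members. Modules at that p numbered 4 and 15 of 236 for the higher copper effect, and 6 and 4 for the lower.

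A ratio of module counts within a library does not depend on how libraries are scaled. The log2 ratio of M00012 to the citrate cycle module M00009, added after the values were seen, was -9.28 ± 0.47 (SD, n = 3) in the 1 h control and -11.47 ± 0.38 under higher copper. Its higher copper difference from the control was -2.20 at 1 h, -1.49 at 4 h and -1.79 at 12 h. Averaged over the times it was -1.83, with a p of 0.0005 in an exact two-sided permutation test within times (adjusted over 4 copper ratio tests, 0.002). The smallest p that these 8000 permutations can give is 0.00025. The higher copper mean difference was -2.07 without both doubted controls (exact permutation p = 0.0005, adjusted p = 0.002). Fewer permutations than these 8000 are possible without those libraries, so that p is on a coarser scale and is the smallest they can give. For lower copper the mean difference was -0.79 (exact permutation p = 0.0283, adjusted p = 0.0565), and without both doubted controls it was -1.03 with an adjusted p of 0.014. M00012 counts were 0.0206% to 0.211% of M00009 counts. In KEGG both cycles list citrate synthase, aconitase and malate dehydrogenase, and the sources used here do not give how reads of an enzyme shared by modules were assigned. The families that contribute to M00012 in this table are therefore not known, and its fall is that of a small module count, not of isocitrate lyase or malate synthase by name.

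**Figure D2:**
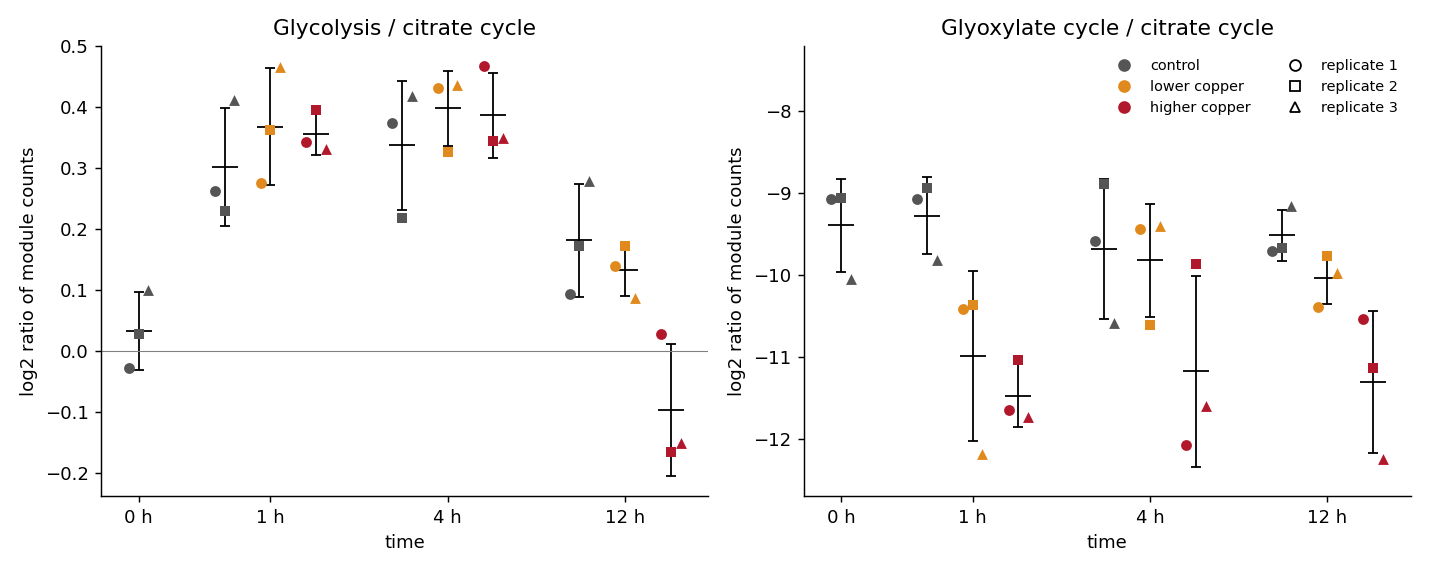
Log2 ratio of module counts (vertical axis) by time (horizontal axis) for glycolysis to citrate cycle (left) and glyoxylate cycle to citrate cycle (right) in 30 libraries, with mean ± SD of 3 libraries. On the left the group mean of higher copper at 12 h was lowest, at -0.10 against 0.18 in the control of that time. Its highest library, at 0.03, lay within the 0 h control range of -0.03 to 0.1. On the right the higher copper groups lay at means of -11.47, -11.18 and -11.30 at 1, 4 and 12 h.

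The citrate cycle module M00009, which holds the mitochondrial oxidation of acetyl-CoA to carbon dioxide, varied by 1.56-fold between libraries, which ran from 9450 to 14700 CPM. In the controls it stood at 12900, 12600 and 13700 CPM at 0 h, and at 11600, 11200 and 11400 CPM at 1 h. All libraries at 1 h were below those at 0 h, by -0.20 ± 0.09 on the log2 scale, which did not pass the test over all modules (edgeR adjusted p = 0.532; -0.22 and 0.739 without both doubted controls). At 4 h the controls stood at 12100, 12000 and 11300 CPM and at 12 h at 11800, 12900 and 10900 CPM.

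Under higher copper M00009 stood at 9450, 11800 and 12000 CPM at 1 h, at 11500, 11900 and 12600 CPM at 4 h and at 12100, 14700 and 14300 CPM at 12 h. At 12 h replicates 2 and 3 were above every control of that time and replicate 1 was among them. The log2 fold change there was 0.21 ± 0.09 (edgeR adjusted p = 0.133). Without replicate 1 of that group it was 0.29 with an adjusted p of 0.0454. Lower copper means were 10800 ± 590 CPM at 1 h, 11100 ± 600 CPM at 4 h and 12100 ± 1190 CPM at 12 h. Over all 6 copper comparisons the log2 change of M00009 lay between -0.09 and 0.21.

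The glycolysis module M00001, rank 16 of 236 at a mean of 14000 CPM, varied by 1.34-fold between its lowest and highest library. The control levels were 12700, 12900 and 14700 CPM at 0 h, 13900, 13200 and 15100 CPM at 1 h, 15700, 13900 and 15100 CPM at 4 h and 12600, 14600 and 13300 CPM at 12 h. Higher copper gave 12000, 15500 and 15100 CPM at 1 h, 16000, 15100 and 16000 CPM at 4 h and 12300, 13100 and 12900 CPM at 12 h. These libraries overlapped the controls at each time. Lower copper gave means of 13900 ± 661, 14600 ± 1110 and 13200 ± 964 CPM at 1, 4 and 12 h.

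Over the 6 copper comparisons the log2 change of M00001 stayed between -0.08 and 0.08, each with an SE of 0.09. The lowest edgeR adjusted p was 0.619, and the 95% intervals together ran from a fold of 0.829 to 1.2. The largest change of M00001 lay between times of the higher copper cultures: its 12 h libraries were all below its 4 h libraries. That log2 difference was -0.30 ± 0.09 (edgeR adjusted p = 0.0727), where 0 of 7 members and 5.08% of modules were called. An unadjusted p under 0.05 was found for 3 of 7 members, M00001, M00003 and M00307, and for 48 of 236 modules.

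The mean log2 ratio of glycolysis to citrate cycle counts was lower at 12 h than at 4 h within each copper level. It was 0.34 ± 0.11, 0.40 ± 0.06 and 0.39 ± 0.07 (SD, n = 3) at 4 h in control, lower and higher copper, and 0.18 ± 0.09, 0.13 ± 0.04 and -0.10 ± 0.11 at 12 h. The control libraries overlapped, from 0.22 to 0.42 at 4 h and from 0.09 to 0.28 at 12 h, while those of lower and of higher copper did not. The control mean at 0 h was 0.03 ± 0.06, below the control mean at 12 h. The mean difference of 12 h against 4 h was -0.30, with a p of 0.0005 in an exact permutation test within copper levels. Without the doubted control at 4 h, the control of that time with the highest ratio, it was -0.29 (exact permutation p = 0.001). This test was chosen after the values were seen and stands alone, so it has no adjustment. In the higher copper cultures at 12 h every library was below every control of that time, from -0.17 to 0.03 against 0.09 to 0.28. The mean copper effect on the ratio was -0.06 for higher copper (exact permutation p = 0.32, adjusted p = 0.426) and 0.03 for lower copper (p = 0.518, adjusted p = 0.518). For higher copper it was made of 0.06 at 1 h, 0.05 at 4 h and -0.28 at 12 h. The mean effects were -0.03 (exact permutation adjusted p = 0.67) and 0.06 (adjusted p = 0.268) without both doubted controls.

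Gluconeogenesis, M00003, which includes phosphoenolpyruvate carboxykinase and fructose-bisphosphatase, averaged 3260 CPM. Its counts were 21.4% to 26.4% of the glycolysis counts in each library, and glycolysis was the module whose profile it followed most closely. The reversible steps are common to both KEGG modules, and the part of shared reads in this likeness was not tested. At 4 h M00003 stood at 3440, 3060 and 3410 CPM in the control and at 4200, 3460 and 3650 CPM under higher copper. The groups did not overlap, and the log2 difference of 0.19 ± 0.10 did not pass the test (edgeR adjusted p = 0.237; 0.22 and 0.304 without both doubted controls). Lower copper at 4 h gave 3360, 3110 and 3800 CPM, within and above the control range.

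Pyruvate oxidation, M00307, the pyruvate dehydrogenase complex, averaged 2240 CPM. At 1 h the controls stood at 2100, 2230 and 2500 CPM, lower copper at 2210, 2170 and 2390 CPM and higher copper at 2030, 2680 and 2700 CPM. The higher copper libraries lay on both sides of the controls. The log2 change of 0.12 ± 0.11 was the largest of its 6 copper comparisons (lowest edgeR adjusted p 0.639). At 12 h the control stood at 2170, 2190 and 1780 CPM and higher copper at 1950, 2120 and 2240 CPM, again overlapping.

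**Figure D3:**
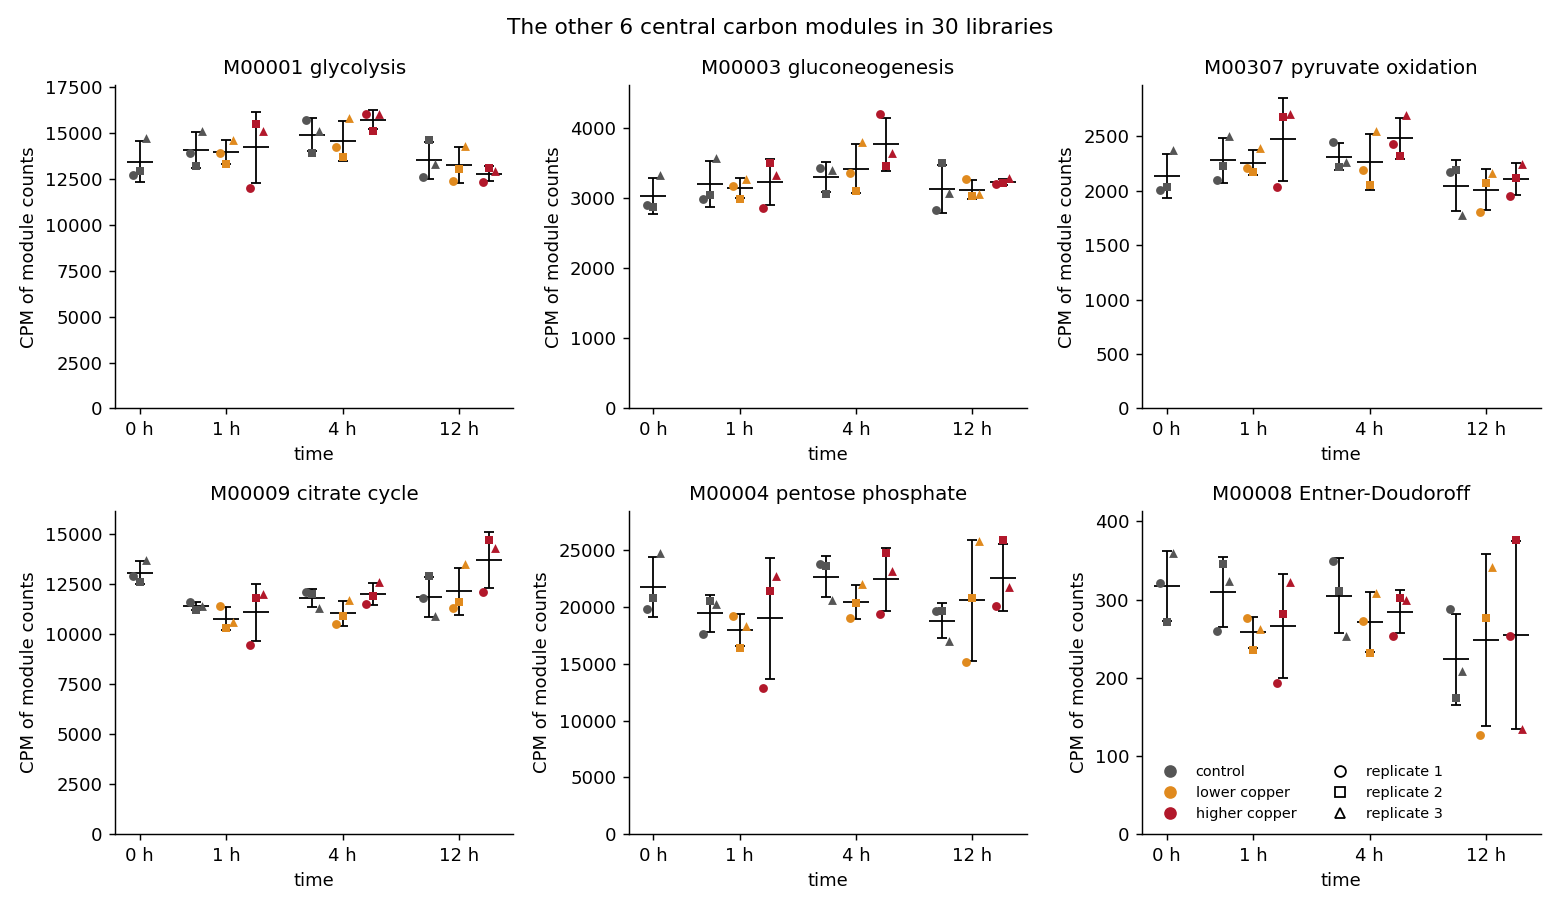
CPM (vertical axes, from 0) by time (horizontal axes) for glycolysis, gluconeogenesis, pyruvate oxidation, the citrate cycle, the pentose phosphate pathway and the Entner-Doudoroff pathway in 30 libraries, with mean ± SD of 3 libraries. Group means differed by at most 1.42-fold within a module.

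The pentose phosphate module M00004, at 20600 CPM the most abundant member and rank 9 of 236, spread more between replicates. At 1 h the controls stood at 17600, 20500 and 20300 CPM and higher copper at 12900, 21400 and 22700 CPM, so that replicate 1 was below and replicates 2 and 3 were above every control. At 12 h the controls stood at 19700, 19700 and 17000 CPM and higher copper at 20100, 25900 and 21800 CPM, with no overlap. The log2 difference at 12 h, 0.27 ± 0.18, did not pass the test (edgeR adjusted p = 0.299). Lower copper at 12 h ran from 15200 to 25800 CPM, from below every control to near the highest higher copper library. At 4 h the means were 22700 ± 1790 CPM in the control, 20500 ± 1470 CPM under lower and 22400 ± 2790 CPM under higher copper.

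The Entner-Doudoroff module M00008, a route from glucose 6-phosphate to pyruvate through 2-keto-3-deoxy-6-phosphogluconate, averaged 274 CPM. Its counts were 0.618% to 1.68% of those of M00004. Its highest group mean was the 0 h control at 317 ± 44.3 CPM and its lowest the 12 h control at 224 ± 58.3 CPM. The 12 h controls stood at 288, 174 and 209 CPM, the lower copper cultures at 127, 276 and 342 CPM and the higher copper cultures at 253, 376 and 135 CPM. The copper groups at 12 h thus lay both above and below the controls. The log2 difference of control 12 h from 0 h was -0.50 ± 0.30 (edgeR adjusted p = 0.337), and no copper comparison reached an adjusted p under 0.704. Its 95% intervals over the 6 copper comparisons together ran from a fold of 0.543 to 1.75.

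**Figure D4:**
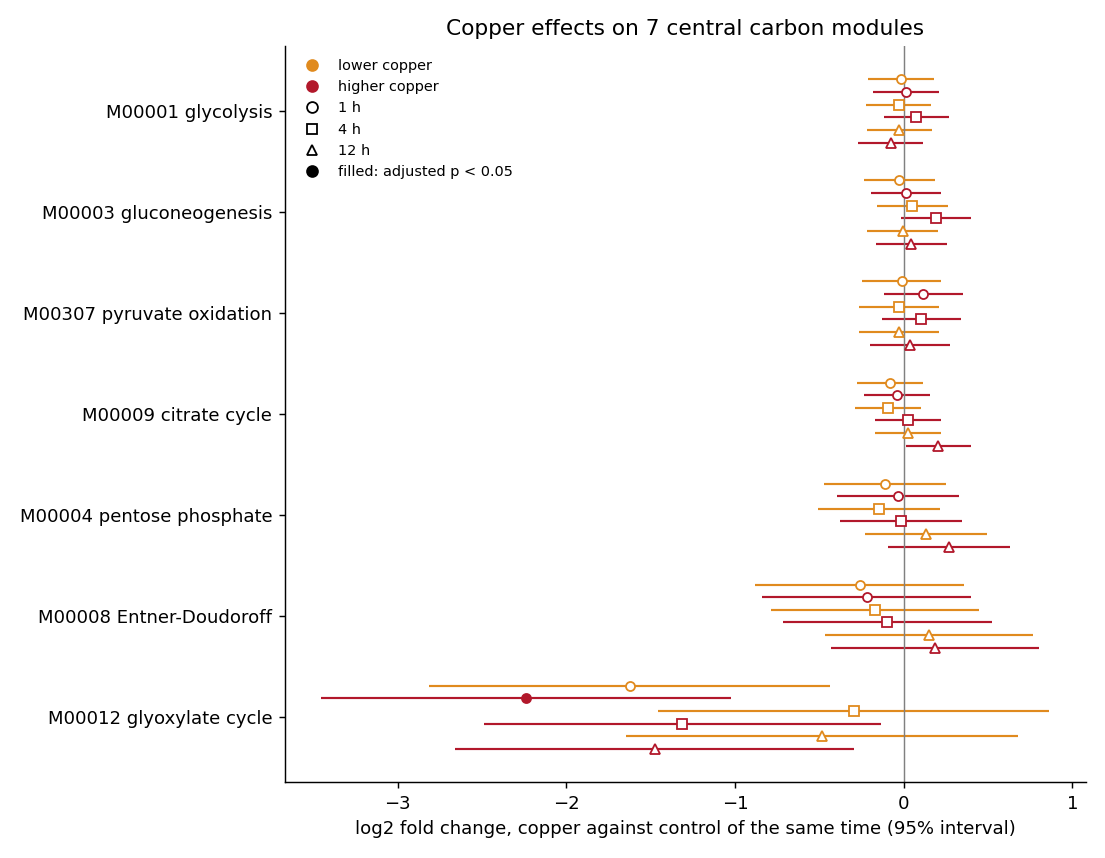
Log2 fold change of copper cultures from their control at equal time (horizontal axis) with 95% interval for 7 modules (vertical axis). Colours give the copper level, symbols the time, and the 1 filled symbol, M00012 under higher copper at 1 h, is the value with an adjusted p under 0.05. The values of the other 6 modules lie between -0.26 and 0.27.

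As a list, the 7 members had a smaller median absolute log2 difference from the controls under higher copper than all modules had. M00012 itself was far above the median of all modules at each time, and the difference of the medians was not tested. The members ranked 9, 16, 19, 67, 86, 161 and 226 of 236 by mean CPM. The part of abundance in the difference of the medians was not tested. The median absolute log2 change under higher copper was 0.04 for the members and 0.17 for all modules at 1 h, 0.10 and 0.20 at 4 h, and 0.19 and 0.26 at 12 h. The signed medians were -0.04 and 0.01 at 1 h, 0.03 and 0.02 at 4 h, and 0.05 and 0.00 at 12 h. Leaving out both doubted controls moved the absolute median of the members to 0.08 at 1 h and 0.09 at 4 h and the signed median to -0.02 and 0.00. The 36 copper differences of the members other than M00012 then lay between -0.30 and 0.26, with a lowest edgeR adjusted p of 0.177. Under lower copper at 1 h the median was -0.08 against 0.02 for all modules, and 7 of 7 members were below the control, though 0 passed the test. Each of these differences except that of M00012 was smaller than its SE, and the share of all modules below the control is not given here. With both doubted controls left out 4 of 7 members were below the control, with M00001, M00003 and M00307 at 0.03, 0.05 and 0.05. The within-group coefficient of variation had a median of 9.34% over the members and 11.7% over all modules, and M00012 stood apart at 38.4%.

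Between times, the members did not pass the pairwise tests. Later controls against the 0 h control gave 0 of 7 members called at 1, 4 and 12 h by both edgeR and DESeq2, where edgeR called 0.424%, 5.08% and 8.47% of all modules. At an unadjusted p under 0.05 stood 1, 0 and 0 members, and 20, 34 and 54 of 236 modules. M00012 differed from its 0 h control by -0.09, -0.32 and -0.30 on the log2 scale at 1, 4 and 12 h (lowest edgeR adjusted p 0.746). The value at 1 h was 0.12 and that at 4 h 0.00 without both doubted controls, so the direction at these times depended on that pair. Steps between consecutive times, added after the values were seen, called 0 members by both tools in every copper level. In the controls edgeR called 0.847% of modules from 1 to 4 h and 0% from 4 to 12 h; in lower copper 1.27% and 0%; in higher copper 4.24% and 5.08%. Members at an unadjusted p under 0.05 numbered 0 in the first 4 of these steps, and 1 and 3 in the higher copper steps. Modules at that p numbered 17, 25, 18, 14, 41 and 48 of 236 in the same order. A test for any difference among the 10 groups, also added, called M00012 (edgeR adjusted p = 0.0175), 1 of 7 members where 29.7% of modules were called. M00009 was next among the members, at an adjusted p of 0.0697. The adjusted p values were 0.0107 and 0.0631 without both doubted controls.

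Likeness between modules was measured as the SD of the log2 ratio over the 30 libraries, which share depth and scaling. M00001 was most like M00003 (SD 0.08) and M00307 (0.09), against a median of 0.29 over all other modules. M00004 was most like cysteine synthesis, M00021 (0.10), and the cytochrome b6f complex, M00162 (0.12), against a median of 0.36. M00009 was nearest to the ESCRT-III complex, M00412 (0.11). M00012 had no close counterpart by this measure: its nearest module, M00409, was at 0.80, against a median of 1.02. The measure includes the spread between replicates, which for M00012 had a median coefficient of variation of 38.4%. It therefore cannot tell a distinct profile from a noisy count.

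Of a list of 25 neighbouring carbon modules, 15 had a row. Under higher copper edgeR called 1 higher and 1 lower at 1 h, where 5.08% of all modules were called. It called 3 higher and 1 lower at 4 h, against 8.47%, and 2 higher and 1 lower at 12 h, against 16.5%. Under lower copper it called 0 at each time, while the mean over the times called M00086 and M00532 higher and M00169 lower, against 4.66%. These counts were the same without both doubted controls. The photorespiration module M00532, the salvage of 2-phosphoglycolate, in which glyoxylate is an intermediate, rose at each time under higher copper. Its mean was 27400 ± 2670 CPM in the 4 h control and 44000 ± 2310 CPM under higher copper at 4 h (log2 change 0.68 ± 0.10, edgeR adjusted p = 9.73e-05; 0.77 and 0.000173 without both doubted controls). M00086, which activates fatty acids for beta-oxidation, was 5710 ± 751 CPM in the 4 h control and 9490 ± 1070 CPM under higher copper (0.73 ± 0.14, adjusted p = 0.00116; 0.85 and 0.000901 without both doubted controls), and 6520 ± 688 and 10300 ± 865 CPM at 12 h (0.66 ± 0.14, adjusted p = 0.00337). M00171, a C4 acid cycle, rose at 4 h by 0.50 ± 0.10 (adjusted p = 0.00121; 0.52 and 0.00801 without both doubted controls). M00169, the light phase of crassulacean acid metabolism in KEGG, whose enzymes include malic enzyme, fell by 0.29, 0.32 and 0.34 on the log2 scale at 1, 4 and 12 h (adjusted p 0.0254, 0.00385 and 0.00337). Further neighbours were called by edgeR in added comparisons. M00565, trehalose synthesis, fell by 0.18 ± 0.06 in the higher copper mean over the times (adjusted p = 0.034), a call not made without both doubted controls. M00083, fatty acid elongation, fell by 0.43 ± 0.11 from 4 to 12 h under higher copper (adjusted p = 0.0141). M00083 and M00308, another Entner-Doudoroff form, were also called for any difference among the groups (adjusted p 0.0159 and 0.0372; 0.0522 and 0.0512 without both doubted controls).

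The reductive citrate cycle module M00173, a bacterial route that shares most of its enzymes with the citrate cycle, was followed for comparison. In the controls it rose from 26800 ± 3980 CPM at 0 h to 39700 ± 1750 CPM at 12 h (log2 change 0.57 ± 0.11, edgeR adjusted p = 0.00183). Over the same interval the means of M00009 were 13100 ± 566 and 11900 ± 1000 CPM. Photorespiration also rose in the controls, by 0.59 ± 0.10 at 12 h against 0 h (edgeR adjusted p 0.000514). At 4 h its log2 difference from 0 h was 0.43 ± 0.10 (adjusted p 0.0145), and without both doubted controls 0.32 with an adjusted p of 0.19.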

How the data were processed

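RNA-seq libraries (single reads of 50 nt) from O. tauri cultures, 30 in all, were used. The deposited module counts are whole-number read counts per KEGG module, not normalized by the authors; per the labels they come from a homology search against KEGG. The sources used here do not give the aligner, counting tool, strand setting, build or division of reads between modules. DESeq2 appears, with no version, in the submitters' processing notes. The authors' deposited comparison tables, with their p-values, were not used. Deposited gene counts served only for depth and as an alternative library size: no table used here pairs genes with enzymes, so the planned test of enzyme genes was not run and no sequences are shown.

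Module counts went through edgeR 4.0.16 in R 4.3.3 (TMM, quasi-likelihood, 1 fit of 10 group means, 20 residual degrees of freedom, no filter, Benjamini-Hochberg over 236 modules within each of 16 planned and 10 added comparisons). Called modules are those with an adjusted p under 0.05. Each SE was obtained as log2 fold change over root F. Ratios used exact permutation tests in Python 3.11.15. Every member was named, and neighbours were named where called in a comparison of copper with control, of controls with 0 h or in an added comparison. The members and lists were chosen with earlier results of these data known. Alternatives were DESeq2 1.42.0 (test, size factors), filterByExpr, only the groups compared, gene-table library sizes, a replicate block, the doubted controls exchanged or left out, and each library left out in turn. Planned ratios of M00006 to M00007 and of M00010 to M00011 were not run.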

Additional observations from a re-analysis of the deposited data

How the results depend on the processing

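Of 6649 recomputed member values, 6624 kept their call, 8 lost it and 17 gained it. Most were not called in the main fit, and a value called in neither fit counts as kept whatever its direction. M00012 under higher copper at 1 h kept its call in 30 of 38 settings, and its mean over the times in 38 of 38. Most of these settings left out a library outside the groups compared at 1 h. Of the libraries of those groups, only control replicate 3 could be left out without loss of the 1 h call. No called value changed direction. The number of members called under higher copper at 1 h (1) was 0 with only the groups compared, with library sizes from the gene table and with the doubted control labels exchanged (M00012 adjusted p 0.123, 0.0915 and 0.110), and 0 to 1 with a library left out. At 4 h and at 12 h it was 0 to 1 with a library left out. For higher against lower copper over the times it was 1 with DESeq2 and 0 to 2 with a library left out; the value of 2 came without higher copper replicate 1 at 1 h (M00009 and M00307). For control 4 h against 1 h it was 5 with library sizes from the gene table, a scaling that moved the median of all modules by up to 0.52 and uses the columns in doubt; other scalings moved it by at most 0.06. For any difference among the groups it was 2 with DESeq2 size factors, 2 with the DESeq2 test and 1 to 2 with a library left out, the second being M00009. The shares of all modules given above are those of the main edgeR fit, not of DESeq2 or the other alternatives. Changed counts of members are therefore not set against the change over all modules. The lower copper ratio of M00012 to M00009 was -1.03 (adjusted p 0.014) without both doubted controls and -0.94 to -0.59 with a library left out, passing without control replicate 3 at 4 h and without lower copper replicate 2 at 12 h. filterByExpr removed 0 modules.

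Replicate numbers did not pair the samples over the series: same-numbered libraries correlated between -0.631 and 0.615 over 36 pairs. Every pair was over 0.1 in 1 of 12 comparisons, higher copper against control at 1 h (0.305 to 0.615). With the replicate block, members called numbered 1 under higher copper at 12 h (M00012, -1.59, adjusted p 0.0416), 1 in higher against lower copper over the times (M00012, -0.96, adjusted p 0.036) and 1 in higher copper 12 h against 4 h (M00001, -0.30, adjusted p 0.0339); the M00012 call at 1 h was kept (adjusted p 0.0203). The shares of all modules called with the block are not given here. With 3 libraries a group and 98 to 1340 counts, M00012 had an SE of 0.56 to 0.59.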
